A study of Mus musculus with 8 samples.

Results

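Osteoclast marker genes were examined in cultures of calvarial osteoblasts, the bone-forming cells of the skullcap, to see how much of the osteoclast program was present and whether PTH changed it. Osteoclasts are multinucleated cells of the macrophage lineage that dissolve bone. Their precursors carry the receptor RANK, and its ligand RANKL, made by osteoblasts and related stromal cells, turns on the transcription factor NFATc1, after which the cells fuse, seal onto bone, acidify the space beneath them and digest its matrix. PTH is known to raise RANKL in osteoblasts, and osteoclasts themselves are thought to respond mainly through that signal. The 10 genes were Acp5, Ctsk, Calcr, Oscar, Dcstamp, Ocstamp, Nfatc1, Atp6v0d2, Tnfrsf11a and Car2, taken by symbol from a table of 47706 genes, in which each had a single entry. Of the 10, 9 had at least 1 count in some sample and 8 had enough counts to be tested.

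RNA was sequenced from 4 PTH-treated and 4 vehicle-treated cultures, exposed for 24 hours after 7 days of differentiation. The labels give every sample the prefix Con, without explaining it, and name adipogenic differentiation, whereas the study's methods describe osteogenic medium, serum starvation and cells freed from the calvaria of newborn mice by collagenase. The study's methods give a C57BL/6 background for its transgenic mice but no strain or sex for these cultures, and the sources do not say whether the 4 samples of a treatment came from separate isolations, so the p-values measure the spread between these samples, which may be technical. Total counts lay between 33605610 and 56090654 per sample. Levels are given as CPM, that is, counts divided by the TMM-normalized library size in units of 1e6 counts, and a gene was called changed when its adjusted p in edgeR's quasi-likelihood test, over all 16736 genes tested, was under 0.05.

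The labelled cell type was borne out by its markers, since the 12 osteoblast markers summed to between 73362 and 106140 CPM per sample, nearly all of it type I collagen (Col1a1 and Col1a2). Macrophage RNA was present as well. All 19 macrophage markers listed were detected, and the defining ones were well above 0, with means in vehicle of 69.0 CPM for Csf1r (in a locus shared with another symbol), 68.7 for Adgre1, 58.2 for Cd68 and 13.5 for Ptprc. Summed over the 19 genes, the level was 1509, 1237, 1389 and 2033 CPM in vehicle replicates 1 to 4 and between 1923 and 2405 CPM with PTH. Lyz2 was the largest part of this sum, with means of 914 CPM in vehicle and 1417 CPM with PTH. Without Lyz2 the sum was 621, 489, 552 and 852 CPM in vehicle replicates 1 to 4. In PTH replicates 1 to 4 it was then 753, 812, 735 and 779 CPM, all below vehicle replicate 4. Vehicle replicate 4 stood apart: each of the 19 genes had its highest vehicle value in that library. In bulk RNA, more cells of a type and more RNA per cell cannot be told apart. RNA of lymphocytes (at most 0.262 CPM summed over 6 markers), of granulocytes and mast cells (at most 0.861 CPM over 8) and of red cells (at most 1.59 CPM over 6) was at or near 0. Markers of endothelial cells (5.66 to 7.11 CPM), Schwann cells and glia (21.7 to 28.3 CPM), chondrocytes (422 to 622 CPM) and adipocytes (427 to 506 CPM) were detected.

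The marker genes did not form a set with similar levels. Per kilobase of the longest annotated transcript, the mean level in vehicle fell from 297 ± 27.9 CPM per kilobase (SD, n = 4) for Ctsk to 16.3 ± 2.44 for Acp5, 9.01 ± 0.265 for Nfatc1, 1.39 ± 0.213 for Atp6v0d2 and 0.694 ± 0.233 for Tnfrsf11a. Below these, Oscar (0.155 ± 0.0487), Car2 (0.138 ± 0.0374) and Ocstamp (0.120 ± 0.0463) overlapped one another, and Calcr and Dcstamp had no count in any vehicle sample. With PTH the order was the same except that Nfatc1 (20.8 ± 2.17) stood above Acp5 (15.8 ± 2.36), and the samples of these neighbours did not overlap in either treatment. The levels of the other neighbouring genes down to Tnfrsf11a, and of Tnfrsf11a and Oscar, did not overlap within a treatment either.

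**Figure D1:**
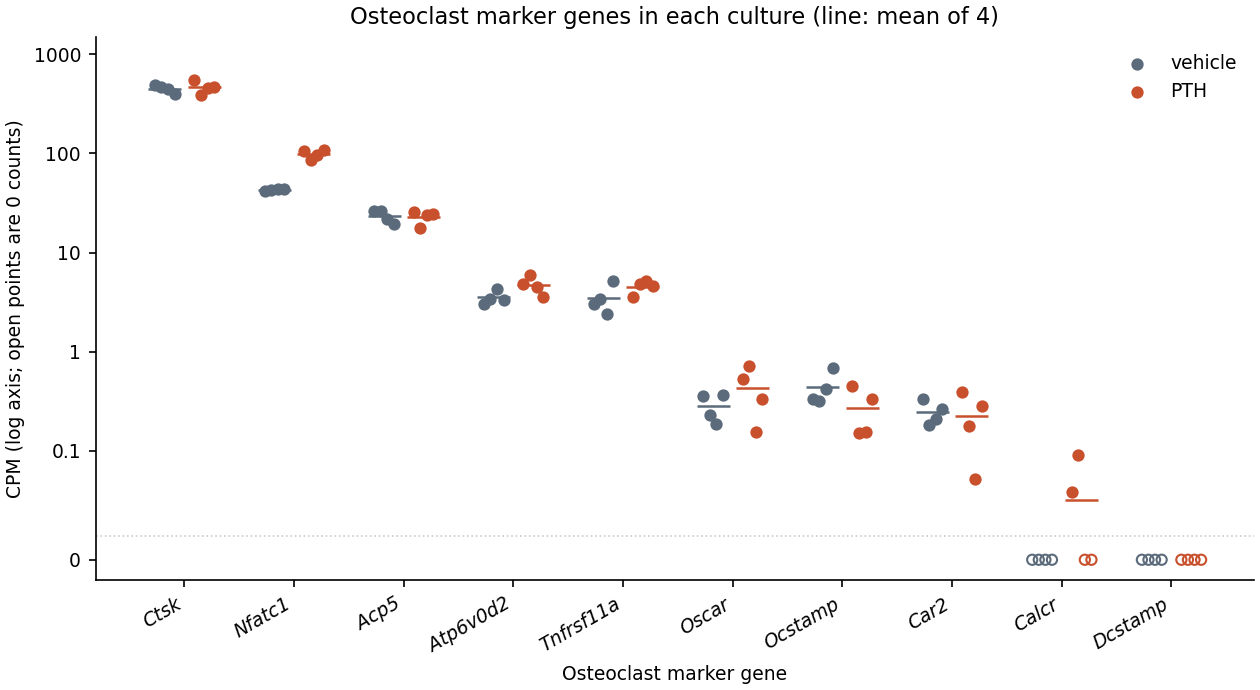
CPM of the 10 osteoclast marker genes in each of the 4 vehicle and 4 PTH cultures, on a log axis, with lines at the means and open points for samples with 0 counts. Nfatc1 is the gene whose 4 PTH samples (86.2 to 109 CPM) all lie above its vehicle samples (41.4 to 44.1 CPM), while Calcr and Dcstamp sit at or next to 0.

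Between PTH and vehicle, 1 of the 8 tested marker genes, Nfatc1, was higher and 0 were lower by edgeR, with medians of log2 fold change of 0.21 over the 8 genes and -8e-04 over all tested genes. Of all tested genes, 45.8% were called (23.3% higher and 22.5% lower), against 12.5% of the marker genes. Counting unadjusted p-values under 0.05, 2 were higher and 0 lower, and DESeq2 gave 1 and 0. The treatments did not overlap in 1 of the 8 tested marker genes and in 43.0% of all tested genes. Without PTH replicate 4, Atp6v0d2 was also called, and without vehicle replicate 4 Tnfrsf11a was, so that 2 were higher in each of these fits.

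**Figure D2:**
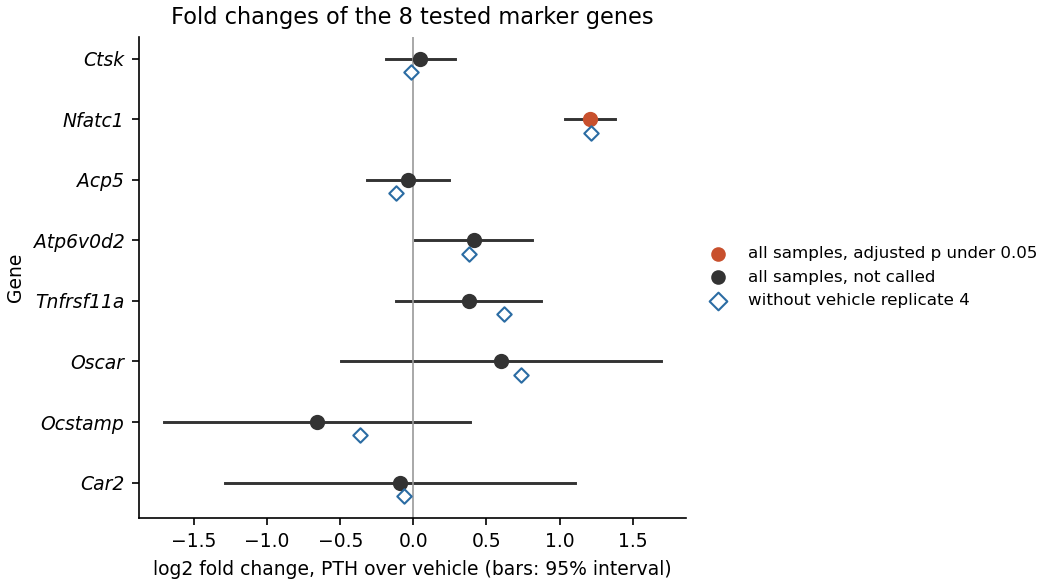
Log2 fold changes (PTH over vehicle) of the 8 tested marker genes from edgeR, with 95% intervals, over all 8 samples (circles) and without vehicle replicate 4 (diamonds). The interval of Nfatc1 (1.03 to 1.38) lies well above 0, those of Ctsk and Acp5 are narrow and include 0, and those of Oscar, Ocstamp and Car2 are wide.

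Nfatc1, on chromosome 18 from 80606205 to 80713071 on the minus strand, encodes the transcription factor that RANKL switches on in osteoclast precursors through calcium and calcineurin. It is also expressed in other cell types. Its level was 41.4, 43.2, 44.1 and 44.1 CPM in vehicle replicates 1 to 4 and 107, 86.2, 96.8 and 109 CPM in PTH replicates 1 to 4. The lowest PTH sample was thus well above the highest vehicle sample, and the vehicle samples lay close together. Its log2 fold change of 1.21 had a standard error of 0.0785 (adjusted p = 1.32e-07), and the exact permutation test gave a two-sided p of 0.0286, the smallest that 4 samples against 4 allow. Without vehicle replicate 4 the log2 fold change was 1.21 (adjusted p = 2.16e-06), and over 15 alternatives it lay between 1.16 and 1.28. Over the same samples the macrophage markers had a median log2 fold change of 0.32, with 5 of 19 (26.3%) called higher against 23.3% of all tested genes, and their part in the rise of Nfatc1 was not tested. A gene on the other strand, AC123818.1, overlaps Nfatc1 in the annotation, and the strand setting of the counts was not given in the sources used here, so reads of the pair could not be told apart.

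The other NFAT genes changed in both directions. Nfatc2 rose from 7.01 ± 0.674 to 44.5 ± 4.52 CPM (2.67 on the log2 scale, adjusted p = 9.34e-10), Nfatc4, the NFAT gene with the highest level per kilobase (26.8 CPM per kilobase in vehicle), rose by 0.93 on the log2 scale, and Nfat5 rose by 0.32. Nfatc3 fell by 0.70. Of the 13 genes listed for calcineurin and NFAT, all tested, 5 were higher (38.5%), 4 were lower (30.8%) and 4 were not called, with a median of 0.08. The shares of all tested genes were 23.3% higher and 22.5% lower. Rcan1, an inhibitor of calcineurin that is itself an NFAT target, rose by 0.56 (adjusted p = 8.29e-04), and Rcan3, in a locus shared with another symbol, had the largest fall (log2 fold change -1.05). Rcan1 and Rcan3 were among the 43.0% of all tested genes whose treatments did not overlap. So were Dyrk1a, a kinase that opposes nuclear NFAT and rose by 0.61, and Gsk3b, another such kinase, which fell by 0.26.

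Ctsk, on chromosome 3 from 95499256 to 95509362, encodes cathepsin K, the protease with which osteoclasts cut type I collagen. Its level was 491, 471, 443 and 393 CPM in vehicle replicates 1 to 4 and 554, 384, 454 and 465 CPM in PTH replicates 1 to 4. The highest and the lowest value both belonged to PTH samples, and the treatments overlapped over their whole range. The log2 fold change was 0.05 (standard error 0.108, 95% interval -0.19 to 0.28, adjusted p = 0.753), and without vehicle replicate 4 it was -0.01. Acp5, on chromosome 9 from 22126727 to 22135711, encodes tartrate-resistant acid phosphatase, the enzyme behind the standard stain for osteoclasts. It had 26.5, 26.3, 21.9 and 19.3 CPM in vehicle replicates 1 to 4 and 25.4, 17.9, 23.8 and 24.5 CPM in PTH replicates 1 to 4. As for Ctsk, the treatments overlapped, PTH replicate 2 was the lowest sample and vehicle replicate 4 the lowest of its group (log2 fold change -0.04, standard error 0.129, 95% interval -0.32 to 0.25, adjusted p = 0.843). A gene on the opposite strand, 6530413G14Rik, overlaps Acp5, and its reads could not be told apart from those of Acp5.

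For 5 of the 10 genes, namely Acp5, Calcr, Ctsk, Oscar and Tnfrsf11a, RefSeq promoter sequences (GRCm38.p6, 250 bases before to 50 after the start site) were at hand. Those of Ctsk, the gene with the highest level, and Oscar, one of the genes with the lowest levels, are shown because both carry the letters that the osteoclast factors NFATc1 and PU.1 can recognize. Capitals mark GGAAA (the NFAT core) and GAGGAA (a PU.1 core) on either strand, and the motifs overlap where a run of capitals is longer than either. Positions are on the plus strand for Ctsk (chr3:95498960-95499259) and the minus strand for Oscar (chr7:3616108-3616407), and each sequence reads in the direction of its gene.
Ctsk: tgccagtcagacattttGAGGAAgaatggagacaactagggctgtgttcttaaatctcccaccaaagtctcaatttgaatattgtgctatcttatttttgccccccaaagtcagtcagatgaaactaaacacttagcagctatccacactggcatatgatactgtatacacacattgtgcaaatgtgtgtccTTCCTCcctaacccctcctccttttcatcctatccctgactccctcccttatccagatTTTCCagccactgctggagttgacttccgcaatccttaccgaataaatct
Oscar: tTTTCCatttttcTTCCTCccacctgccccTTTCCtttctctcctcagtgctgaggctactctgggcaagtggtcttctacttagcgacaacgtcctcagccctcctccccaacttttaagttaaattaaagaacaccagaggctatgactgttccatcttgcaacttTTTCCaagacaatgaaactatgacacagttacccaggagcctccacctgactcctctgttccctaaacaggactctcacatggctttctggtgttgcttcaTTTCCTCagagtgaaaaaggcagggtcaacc
The Ctsk promoter held GGAAA 1 time and GAGGAA 2 times, and the Oscar promoter held them 4 and 2 times. Among all 32851 promoters of the same length, 61.3% held GGAAA and 28.3% held GAGGAA, so both matches are common. The cAMP response element TGACGTCA, found in 1.79% of promoters, was in none of those of the 5 genes, which says only that these letters were not in these windows. Its shorter core TGACG, found in 20.8% of promoters on either strand, was in the Tnfrsf11a promoter 1 time and in the 2 Calcr promoters 2 times and 1 time.

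Relatives of the resorption genes were read per kilobase of the longest annotated transcript, since longer transcripts collect more counts. Another transcript length was tried for the 10 marker genes only, so their ranks among relatives may depend on this choice. Among the other cathepsins, Ctsd had the highest level (631 CPM per kilobase in vehicle, in a locus shared with another symbol), and that of Ctsk exceeded those of Ctsb (206) and Ctsz (169). Undivided by length, Ctsk (449 CPM in vehicle) lay above Ctsz (243 CPM) but below Ctsb (975 CPM). Of 13 other cathepsin genes, 10 were tested and 2 were higher, Ctss (log2 fold change 0.47, adjusted p = 0.0232) and Ctsh (0.22, adjusted p = 0.0354). These were 20% of the cathepsins tested, against 23.3% of all tested genes. By edgeR 0 cathepsins were lower, as at an unadjusted p under 0.05 and by DESeq2. The number of higher cathepsins was 1 without PTH replicate 1, PTH replicate 3 or vehicle replicate 1, 4 without PTH replicate 2, and 0 without PTH replicate 4, vehicle replicate 2 or vehicle replicate 3, and Ctss, which is also a macrophage marker, was called in 10 of 15 alternatives. The level of Acp5 per kilobase was close to those of the lysosomal Acp2 (16.2) and the cytosolic Acp1 (12.5). Undivided by length, Acp5 (23.5 CPM in vehicle) lay below Acp2 (75.3 CPM) and Acp1 (38.5 CPM). Of the 4 other acid phosphatases, Acp2 fell by 0.29 (adjusted p = 0.00291) and Acpp rose by 0.89 from 1.01 CPM (adjusted p = 0.0254). Acpp was not called without PTH replicate 1 or 3 or without vehicle replicate 2 or 4, and without PTH replicate 2 a second gene was lower.

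Atp6v0d2, on chromosome 4 from 19876841 to 19922605, encodes the d2 subunit of the proton pump (V-ATPase), which is enriched in osteoclasts and serves acid secretion and cell fusion. It had 3.03, 3.44, 4.30 and 3.35 CPM in vehicle replicates 1 to 4 and 4.82, 5.90, 4.54 and 3.59 CPM in PTH replicates 1 to 4, or 136 to 247 counts. The 3 highest samples were PTH samples, but vehicle replicate 3 lay above PTH replicate 4. Its log2 fold change was 0.41 (standard error 0.183, 95% interval 0.01 to 0.81, adjusted p = 0.0862; exact permutation p = 0.0571, two-sided), and without PTH replicate 4 it was 0.52 (adjusted p = 0.0387). The common d1 subunit gene, Atp6v0d1, had a far higher level (83.7 against 1.39 CPM per kilobase in vehicle) and was not called either (log2 fold change 0.07, adjusted p = 0.482). Of 24 other V-ATPase genes, 21 were tested. Of these, 9 were higher (42.9%, against 23.3% of all tested genes) and 0 were lower by edgeR. DESeq2 gave the same counts, while 1 was lower at an unadjusted p under 0.05. The changes were small, with a median of 0.19, and the largest rise was that of Atp6v0b (log2 fold change 0.72, adjusted p = 8.42e-05). Tcirg1, the a3 subunit that osteoclasts need, is counted both in this list and in that of the resorption genes. It was not called (0.19, adjusted p = 0.390).

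**Figure D3:**
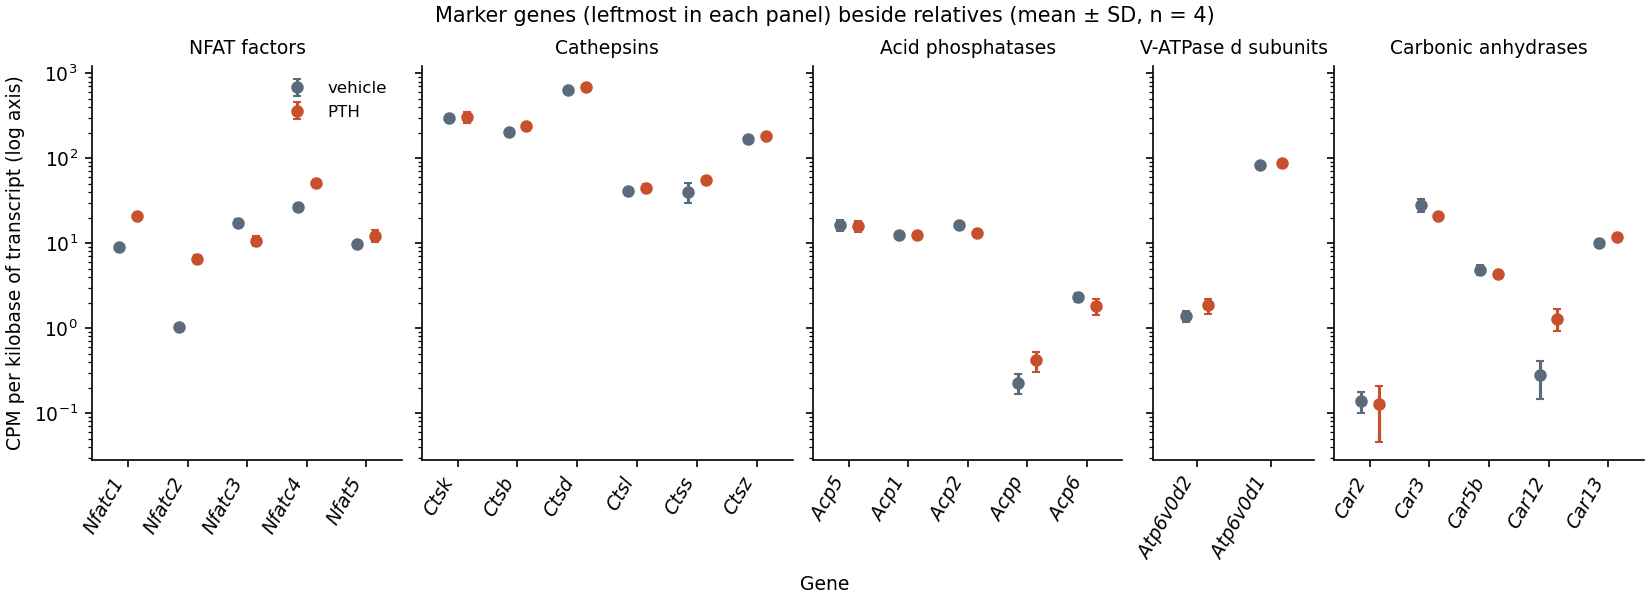
Mean CPM per kilobase of the longest annotated transcript ± SD (n = 4, log axis) of 5 marker genes, each leftmost in its panel, and named relatives, with vehicle and PTH. Ctsk stands among the abundant lysosomal cathepsins and Acp5 beside Acp1 and Acp2, while Atp6v0d2 and Car2 lie far below Atp6v0d1 and Car3.

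Car2, on chromosome 3 from 14886273 to 14900770, encodes carbonic anhydrase II, which supplies the protons that osteoclasts pump. It had 15, 8, 10 and 13 counts in vehicle replicates 1 to 4 and 20, 6, 2 and 12 counts in PTH replicates 1 to 4. The PTH samples spread on both sides of the vehicle samples, and the wide interval of the log2 fold change (-0.09, 95% interval -1.29 to 1.11, adjusted p = 0.909) included changes by 1 in either direction. Of 15 other carbonic anhydrase genes, 8 were tested. Car3, with the highest level per kilobase of the family (28.2 CPM per kilobase in vehicle), fell by 0.44 (adjusted p = 0.00866), Car12 rose by 2.21 from 1.03 to 4.82 CPM (adjusted p = 9.97e-05), and Car13 rose by 0.25.

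Tnfrsf11a, on chromosome 1 from 105780718 to 105847981, encodes RANK, the receptor that marks osteoclast precursors and dendritic cells. It had 3.03, 3.42, 2.38 and 5.12 CPM in vehicle replicates 1 to 4 and 3.59, 4.87, 5.14 and 4.59 CPM in PTH replicates 1 to 4. Vehicle replicate 4, the library with the most macrophage RNA of its group, was the second highest of all 8 samples, and the other 3 vehicle samples lay below every PTH sample. Over all samples the log2 fold change was 0.38 (standard error 0.227, 95% interval -0.12 to 0.87, adjusted p = 0.198), and without vehicle replicate 4 it was 0.62 ± 0.197 (SE, adjusted p = 0.0256). In that same fit, which left out the highest vehicle value of Tnfrsf11a and of each macrophage marker, 17 of the 19 macrophage markers were higher, against 5 of 19 with all samples, and the part of macrophage RNA in the change of Tnfrsf11a was not tested. Over all genes, 3680 of 17040 tested were higher in that fit. The macrophage count was 2 without vehicle replicate 1, 2 or 3 and 3 without PTH replicate 4, and 0 were lower by edgeR. DESeq2 gave 5 higher and 0 lower, and unadjusted p-values under 0.05 gave 9 and 0. Lyz2, encoding lysozyme and the most abundant gene of that list (914 CPM in vehicle), rose by 0.63, and Clec7a had its largest rise (0.90, adjusted p = 0.00967). The macrophage colony-stimulating factor receptor Csf1r (log2 fold change 0.19) and Adgre1 (0.25) were not called.

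**Figure D4:**
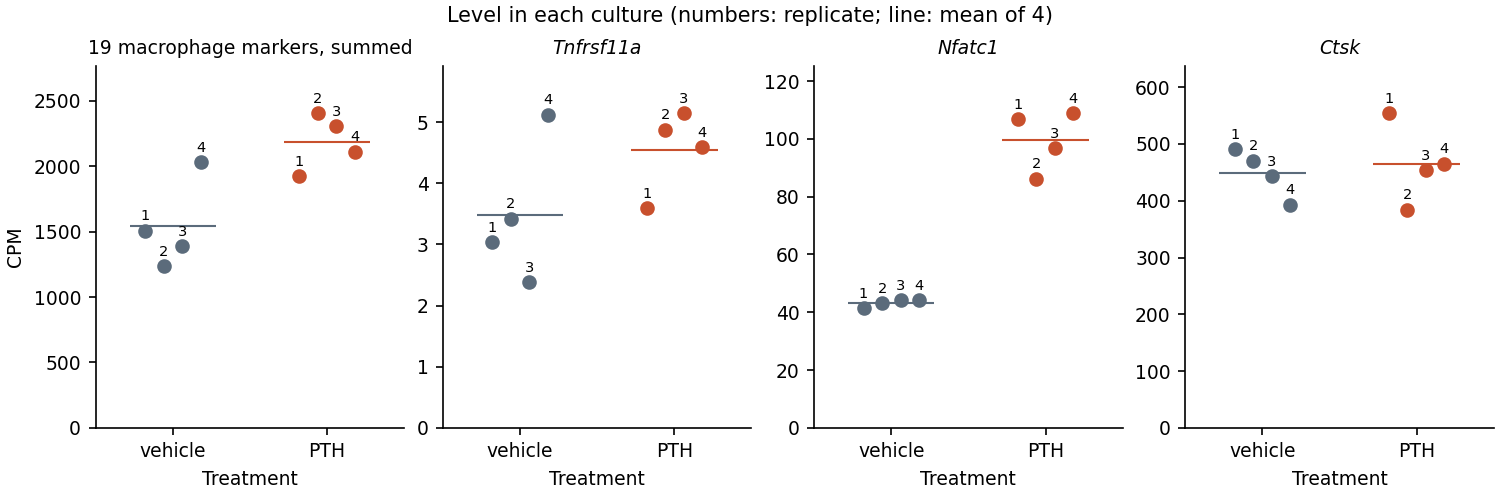
CPM in each culture, numbered by replicate, of 19 macrophage markers summed and of Tnfrsf11a, Nfatc1 and Ctsk, with lines at the means of 4. Vehicle replicate 4 is the highest vehicle sample for the macrophage sum (2033 CPM) and Tnfrsf11a (5.12 CPM), lies among the others for Nfatc1 (44.1 CPM) and is the lowest vehicle sample for Ctsk (393 CPM). The macrophage sum includes Lyz2, without which vehicle replicate 4 (852 CPM) was above every PTH sample (735 to 812 CPM).

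Oscar, on chromosome 7 from 3609813 to 3616157, encodes an immunoglobulin-like receptor that binds collagen and gives osteoclast precursors a costimulatory signal. Its counts were 16, 10, 9 and 18 in vehicle replicates 1 to 4 and 27, 24, 6 and 14 in PTH replicates 1 to 4. PTH samples were both the highest and the lowest (log2 fold change 0.60, 95% interval -0.49 to 1.69, adjusted p = 0.355). The adaptors through which such receptors signal, by motifs known as ITAMs, were far more abundant. Tyrobp, encoding DAP12, rose from 19.6 ± 3.91 to 35.7 ± 8.33 CPM (0.86 on the log2 scale, adjusted p = 0.00133), and Fcer1g, encoding the FcRγ chain with which OSCAR pairs, averaged 27.9 CPM in vehicle samples and 37.3 CPM in PTH samples (0.42, adjusted p = 0.0538). Of 11 tested genes of the costimulation list, 4 were higher (Tyrobp, Trem2, Syk and Fcgr3, the last in a locus shared with another symbol), 7 were so without vehicle replicate 4, and 0 were lower, also by DESeq2 and at an unadjusted p under 0.05. With all samples, 36.4% of the list was higher, against 23.3% of all tested genes. Without vehicle replicate 4, 3680 of all 17040 tested genes were higher. In 8 of the 11, vehicle replicate 4 had the highest vehicle value, as in the macrophage list. Siglec15, an ITAM-linked receptor of late osteoclasts, had no count in any sample.

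Genes of fusion proteins and of the calcitonin receptor had few counts or none. Dcstamp, on chromosome 15 from 39745930 to 39760938, encodes DC-STAMP, a membrane protein without which osteoclasts stay mononuclear, and had 0 counts in all 8 samples. A count of 0 allows a level of up to 0.0585 to 0.0903 CPM per sample (3 counts), for counting error only. Ocstamp, on chromosome 2 from 165393760 to 165400405, encodes the related OC-STAMP and had 15, 14, 20 and 34 counts in vehicle replicates 1 to 4 and 23, 5, 6 and 14 in PTH replicates 1 to 4. Its samples overlapped, with a log2 fold change of -0.66 (95% interval -1.71 to 0.39, adjusted p = 0.288). Calcr, on chromosome 6 from 3685680 to 3764714, encodes the calcitonin receptor, a marker of late, committed osteoclasts. It had 2 and 3 counts in PTH replicates 1 and 2 and 0 in the other 6 samples, which is at or under the limit of 3 counts in every sample, so no fold change is given. Of 11 other genes listed for fusion and podosomes, 3 were higher (27.3%) and 1 was lower (9.09%). The largest rise was that of Sh3pxd2a, a podosome scaffold (1.61 on the log2 scale, adjusted p = 1.08e-05). Its mean went from 651 ± 40.5 to 1989 ± 578 CPM, with 1500, 2632, 2322 and 1500 CPM in PTH replicates 1 to 4. The lower gene was Cd47, which fell by 0.26 (adjusted p = 0.0142). The shares of all tested genes were 23.3% higher and 22.5% lower. Without vehicle replicate 2 Cd47 was not called (adjusted p = 0.0525), and without PTH replicate 1 a second gene was lower. Many of these genes are expressed well beyond osteoclasts.

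The remaining genes of the resorption machinery were read in the same way. Of 15 tested, 0 were higher and 2 were lower by edgeR, Slc4a2, the anion exchanger of the basolateral membrane (log2 fold change -0.32, adjusted p = 0.00102), and Rab3d (-0.38, adjusted p = 0.00165). The shares of 0% higher and 13.3% lower compare with 23.3% and 22.5% of all tested genes. Counting unadjusted p-values under 0.05, 2 of the list rose and 4 fell, and by DESeq2 1 and 2. A single gene was higher without PTH replicate 2 or 3 or without vehicle replicate 1 or 3, and 4 were lower without PTH replicate 1. Mmp9, the gelatinase of osteoclasts, had 6.94 ± 0.733 CPM with vehicle and 9.13 ± 2.24 with PTH (log2 fold change 0.40, adjusted p = 0.0756), Itgb3, the β3 integrin chain of the sealing zone, had 38.6 and 35.8 CPM (-0.11, adjusted p = 0.413), and the chloride transporter gene Clcn7 had 58.7 and 54.0 CPM (-0.12, adjusted p = 0.209). The list's median of -0.04 was close to that of all tested genes.

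Upstream, the ligands of this pathway changed in opposite directions. Tnfsf11 (RANKL) had 1.63, 0.987, 1.25 and 1.79 CPM in vehicle replicates 1 to 4 and 157, 117, 115 and 120 CPM in PTH replicates 1 to 4, and its decoy receptor Tnfrsf11b (osteoprotegerin) went down from 36.4 to 20.6 CPM (-0.82 on the log2 scale, adjusted p = 7.43e-06). Csf1, which keeps osteoclast precursors alive, went from 248, 252, 244 and 236 CPM to 176, 173, 173 and 178 CPM (-0.48 on the log2 scale, adjusted p = 2.59e-05), and Il34, the other ligand of its receptor, fell by 0.39 (adjusted p = 7.89e-04). Inside the cell, 20 genes listed for RANK signaling were tested (median -0.10). Of these, 5 were higher (25%, against 23.3% of all tested genes) and 6 were lower (30%, against 22.5%). Their largest rise was that of Lgr4, another receptor of RANKL (log2 fold change 1.13), and their largest fall that of Tab1, which acts with the kinase TAK1 (-0.99), and Traf6, the adaptor of RANK, was not called (0.10, adjusted p = 0.307).

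Transcription factors of osteoclast formation included 12 higher and 1 lower gene of 18 tested (72.2%, against 45.8% of all tested genes), with a median log2 fold change of 0.87. The list was chosen with earlier results of these data known. Most of these factors are used by many cell types. Fos (8.89 to 212 CPM, log2 fold change 4.58), Junb (4.06), Fosl2 (3.05) and Fosl1 (2.99) made up the list's 4 largest rises. Among the factors restricted mainly to blood cells, Spi1, encoding PU.1, rose from 12.3 to 17.3 CPM (0.48 on the log2 scale, adjusted p = 0.0176). Vehicle replicate 4 (16.5 CPM) lay among the PTH samples (15.1 to 19.3 CPM). Factors that restrain osteoclast formation also rose, Irf8 by 0.43 and Bcl6 by 1.19. Mitf, which acts with PU.1 on the genes of acid phosphatase and cathepsin K, fell by 0.54 (adjusted p = 0.00200), and Jdp2, an AP-1 family factor, rose by 0.74. Prdm1, encoding Blimp1, had at most 35 counts and was not called.

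**Figure D5:**
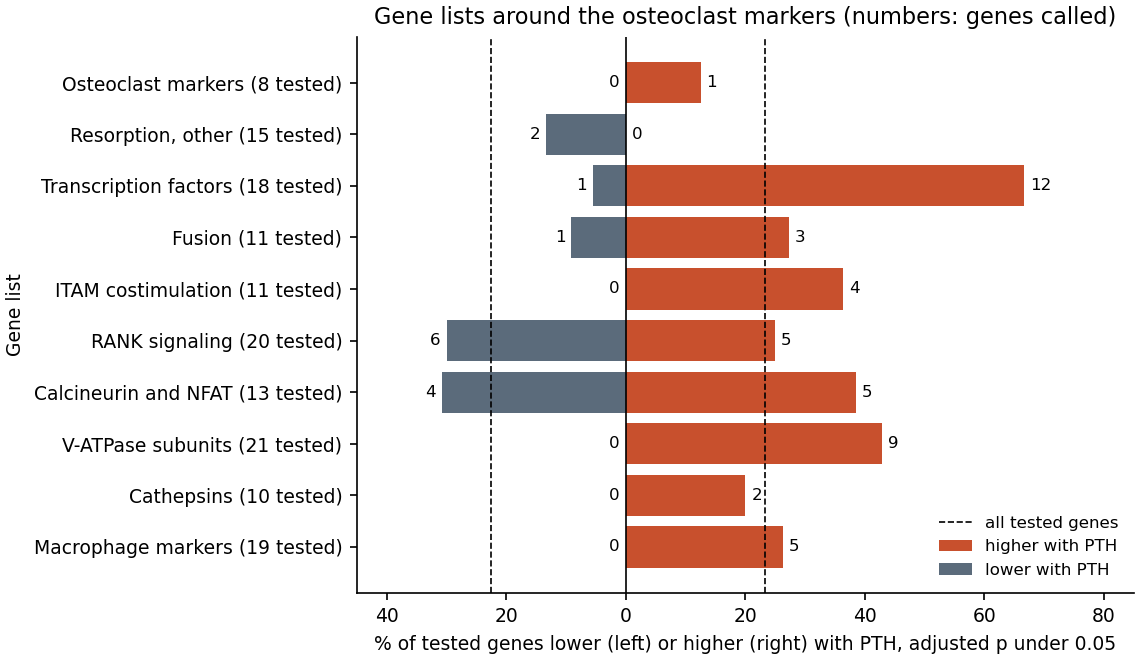
Share of the tested genes of each list that was higher (right) or lower (left) with PTH at an adjusted p under 0.05, with the number called beside each bar and dashed lines at the shares of all tested genes (23.3% and 22.5%). Osteoclast markers had 1 call in 8 tested genes and the other resorption genes 2 in 15, whereas 12 of 18 transcription factors were higher. The lists were chosen with earlier results of these data known.

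Samples of a treatment varied together for some marker genes and not for others. After subtraction of each treatment's mean log2 CPM, Pearson's r over the 8 samples was 0.90 for Acp5 and Ctsk, 0.78 for Nfatc1 and Ocstamp (5 to 34 counts) and -0.58 for Acp5 and Atp6v0d2. With the mean of the macrophage list, r was -0.55 for Ctsk, -0.64 for Acp5, -0.05 for Nfatc1, -0.12 for Atp6v0d2 and 0.68 for Tnfrsf11a, and with the mean of the osteoblast list it was 0.07, -0.16, 0.70, -0.22 and 0.23. These values rest on 8 samples that share their library with both measures, so they describe these libraries only. Among 14069 other genes averaging 1 CPM or more, those most like Ctsk were Smoc2 (r = 0.996), Gas6 (0.993) and Antxr1 (0.991), those most like Acp5 were Gas1 (0.980), Got2-ps1 and Wdr53, and those most like Nfatc1 were Chst15, Ina and Atad1 (each 0.988). For Tnfrsf11a they were Nubp1 (0.971), Cxcl16 and Pkib, and for Atp6v0d2 Gapvd1, Tanc1 (each 0.974) and Scaper. Each was picked as a highest value among 14069 genes over 8 samples, where high r can arise by chance, so no shared regulation is read from them.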

How the data were processed

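The authors made poly(A)-enriched libraries and aligned the reads to GRCm38 (mm10 in the submitters' processing notes) with HISAT2, assembled transcripts with StringTie and deposited whole-number counts per gene, computed from transcript coverage and not normalized. Annotation version, strand setting and read-length setting of the counting script were not given in the sources used here. Columns were matched to samples by title.

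Counts were tested on the whole table with edgeR 4.0.16 in R 4.3.3 (filterByExpr, count minimum 10, total minimum 15, TMM, quasi-likelihood F-test, Benjamini-Hochberg adjustment). For each marker gene an exact permutation test ran over 70 assignments of log2(CPM + 0.1). Residual correlations used log2 CPM with a prior count of 2. Positions and transcript lengths are from GENCODE M21 (GRCm38), promoters from RefSeq. Of the counts, 0.0028% lay in 2 entries with an identifier but no symbol, which stayed in the fit. The edgeR and DESeq2 1.42.0 steps were tested on simulated counts. Plots were drawn with matplotlib 3.10.9 in Python 3.11.15, pandas 2.3.3 and NumPy 2.4.6.

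The marker genes and all gene lists (resorption, transcription factors, fusion, costimulation, RANK signaling, calcineurin and NFAT, ligands, gene families and cell type markers) were chosen with earlier results of these data known. The text names the 10 genes, the ligands, the largest rise and fall of each list, the highest family member per kilobase and the most similar genes. Other genes of the lists were named after their values were seen, as were the correlations with list means. Alternatives were DESeq2, its size factors, no filter, a replicate block, leaving out each sample, halved counts, sums per symbol, calls limited to log2 fold changes of 1 or more in size, thinned counts, a pseudocount of 0.5 and, added after seeing the data, another transcript length. Depth limits genes with few counts, and intervals cover the spread between samples, floors counting error only.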

Additional observations from a re-analysis of the deposited data

Results flagged for a closer look

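Of 89 sets of 4 samples checked (the marker genes and the genes named by rule, in each treatment), 6 had a highest or lowest sample whose distance to the next exceeded Dixon's 95% limit as a share of the range, and chance alone flags about 1 in 20 sets. None belonged to the 10 marker genes. The RANKL gene Tnfsf11 had 157 CPM in PTH replicate 1, against at most 120 CPM in the other 3. Car3 had 60.4 CPM and Car12 1.75 CPM in vehicle replicate 4, the highest vehicle values of each. In PTH replicate 2 Car12 had 6.83 CPM, also the highest of its group. Acp2 had 67.4 CPM in PTH replicate 1, and Tab1 had 20.2 CPM in vehicle replicate 3, its lowest vehicle value.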

How the results depend on the processing

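The number of osteoclast marker genes higher with PTH was 1 with all samples and between 1 and 2 when each sample was left out in turn, with Atp6v0d2 added without PTH replicate 4 (log2 fold change 0.52) and Tnfrsf11a added without vehicle replicate 4 (0.62). Under the other 8 alternatives it was 1, and the number lower was 0 under every alternative run. Nfatc1 was called in all 15 of its fits (largest adjusted p 4.53e-06). The log2 fold changes of genes that were not called changed sign between settings for Acp5 (-0.12 to 0.08), Ctsk (-0.05 to 0.14) and Car2 (-0.50 to 0.22). Depth decided which genes could be tested: 5 with halved counts, 6 with thinned counts and 9 without the filter. With the replicate block, the number higher was 1 as well and over all genes 3571 were higher and 3432 lower, but same-numbered samples correlated between -0.041 and 0.027 after removal of treatment means and none correlated best with its own number, so the numbers were not taken as pairs. Counts of the other lists stayed within 1.5 times of their values in 582 of 640 cases, and the causes of the other 58 were not tested, apart from those of the minimum fold change, which calls fewer genes by construction. Of the other named genes' fold changes, 508 kept their side of the threshold, 13 lost the call and 1 gained it. No called gene changed sign, but Hba-a1, which was not called, did (-1.07 to 0.34). With the median length of coding transcripts, the order of the marker genes' levels per kilobase was the same except that Car2 stood above Oscar in vehicle, with overlapping samples.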
